A study of Mus musculus with 6 samples.

Results

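The myosin-intron miRNAs miR-208a, miR-208b and miR-499 are small regulatory RNAs cut from hairpins in introns of 3 myosin heavy chain genes. They were taken as the sense entries that the count files name Mir208a, Mir208b and Mir499. This gave 6 mature arms, 5p and 3p of each of 3 hairpins, out of 975 mature miRNAs in all. Levels were measured by small RNA sequencing in the hearts of 6 wild-type C57BL/6J mice, an inbred laboratory strain, all male and 18 weeks old, with 1 library per heart. The hearts form 1 group with no treatment or mutant, so the comparisons are between arms and hairpins within a heart, and between hearts. The tissue label names the whole heart while the protocol describes the apex of the ventricles, so the sampled part of the heart is uncertain, and atrial and ventricular levels cannot be separated.

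A miRNA hairpin is cut into a duplex, and one strand is usually kept in an Argonaute protein, where its seed, the bases near its 5′ end, pairs with target mRNAs. Myh6 encodes alpha myosin heavy chain, the main motor protein of the adult mouse ventricle, and Myh7 encodes beta myosin heavy chain, which prevails in the fetal ventricle and in slow skeletal muscle. Myh7b encodes a related, slow-type myosin. In mice, miR-208a is required for the induction of Myh7 in the stressed adult heart, and miR-208b and miR-499 act together to favour slow muscle fibre genes.

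The sequences of the 6 arms follow in order to show what the 3 miRNAs share. They are from RefSeq, build GRCm38.p6, written 5′ to 3′ with the seed, bases 2 to 8, in capitals.
miR-208a-3p: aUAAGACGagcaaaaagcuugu
miR-208b-3p: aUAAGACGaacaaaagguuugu
miR-499-5p: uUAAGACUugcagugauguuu
miR-208a-5p: gAGCUUUUggcccggguuauac
miR-208b-5p: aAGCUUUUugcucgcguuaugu
miR-499-3p: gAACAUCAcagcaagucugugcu
The seed of miR-208a-3p and miR-208b-3p was identical, and that of miR-499-5p shared its bases 2 to 7. No other mature miRNA among the 1738 in the RefSeq table has these bases at positions 2 to 7. Counted from 1 at the 5′ end, miR-208b-3p differs from miR-208a-3p by G10A, A16G and C18U, with the base of miR-208a-3p given first. The first 9 bases are shared, and 86.4% of the 22 positions are identical. The 5p arms share the seed as well but differ at 6 positions, G1A, G9U, C12U, G15C, A21G and C22U, so 72.7% of positions are identical. miR-499-5p matched miR-208a-3p at 12 of its 21 positions and miR-208b-3p at 10. How reads that match several places were counted is not given in the sources used here.

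The shared seed sits on opposite sides of the hairpins, which is why the hairpins are shown with both mature arms in capitals.
Mir208a hairpin: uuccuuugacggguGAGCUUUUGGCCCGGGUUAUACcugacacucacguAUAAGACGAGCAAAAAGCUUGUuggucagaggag
Mir208b hairpin: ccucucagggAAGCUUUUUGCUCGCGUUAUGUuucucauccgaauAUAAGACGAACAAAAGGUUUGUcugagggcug
Mir499 hairpin: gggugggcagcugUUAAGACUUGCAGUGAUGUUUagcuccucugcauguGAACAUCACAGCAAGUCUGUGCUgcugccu
In Mir208a and Mir208b the UAAGAC seed lies in the 3p arm, and in Mir499 it lies in the 5p arm. The hairpins of Mir208a and Mir208b were 63.9% identical, 53 of 83 aligned columns. On GRCm38 the Mir208a hairpin lies at chr14:54949060-54949142 on the minus strand, in intron 29 of Myh6. The Mir208b hairpin lies at chr14:54975700-54975776 on the minus strand, in intron 31 of Myh7, with 26557 bases between the pair. The Mir499 hairpin lies at chr2:155622880-155622958 on the plus strand, in intron 19 of Myh7b. Each hairpin has the strand of its host gene and overlaps no exon annotated in GENCODE M21, and the host introns span 542, 461 and 481 bases for Mir208a, Mir208b and Mir499.

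The libraries held between 3966169 and 6007322 counts, so 3 reads, the limit that a count of 0 allows, corresponded to 0.499 to 0.756 CPM, reads per 1000000 counts of a library. The heart muscle label fitted the muscle markers: miR-133a-3p averaged 89004 ± 4407 CPM and miR-1a-3p 7587 ± 1001 CPM (SD, n = 6), while miR-206-3p, known from skeletal muscle, was seen in 1 read. Heart 5 stood apart in cartilage markers and heart 4 in pancreas markers. After TMM scaling, which corrects for differences in library makeup, the 2 cartilage markers summed to 1999 CPM in heart 5 against 629 to 932 CPM in the other hearts. The 4 pancreas markers, 1 of which had a mean of at least 10 reads, summed to 26.7 CPM in heart 4 against 0.650 to 2.24 CPM in the other hearts. No marker of either list was at 0 in all hearts. Other lists spread as well. The liver marker was at 9.31 and 17.7 CPM in hearts 1 and 2, against 44.6 to 70.5 CPM in the other hearts. The smooth muscle markers summed to 59793 CPM in heart 4, against 84698 to 108909 CPM in the other hearts. Hearts 4 and 5 are left out below where a call rests on them. The labels name no extraction or sequencing batch, and p-values concern these 6 samples only. Those of the chi-square tests below are set against counting error, not against the spread between hearts.

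miR-208a-3p, the leading arm of the Myh6 hairpin, and miR-499-5p, that of the Myh7b hairpin, were close in level, and miR-208b-3p from Myh7 was 10.9-fold and 10.2-fold below them. miR-208a-3p had 1171, 1608, 1189, 1474, 879 and 1043 CPM in hearts 1 to 6, with a mean of 1227 ± 270 CPM (SD, n = 6). Heart 2 was highest and heart 5 lowest. It ranked 50 of 975 mature miRNAs by mean CPM. miR-499-5p had 1144, 1200, 1063, 1250, 1007 and 1094 CPM, with a mean of 1126 ± 89.8 CPM and rank 53. Its hearts lay closer together than those of miR-208a-3p, and heart 5 was again lowest. miR-208b-3p had 133, 71.3, 107, 142, 189 and 65.3 CPM, with a mean of 118 ± 46.7 CPM and rank 121. Here heart 5 was highest, and hearts 2 and 6 were lowest.

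The other arms of the hairpins, usually called passenger strands, ran from well detected to nearly absent. miR-208a-5p had 76.4, 76.9, 79.5, 87.0, 62.4 and 77.1 CPM in hearts 1 to 6 and averaged 76.6 ± 7.97 CPM (SD, n = 6), rank 142. Its levels overlapped those of miR-208b-3p, a leading arm. miR-499-3p had 10.1, 9.87, 7.57, 10.3, 4.66 and 10.4 CPM and averaged 8.81 ± 2.29 CPM, rank 258. miR-208b-5p had 2 reads in all, 1 in heart 4 and 1 in heart 6. Pooled over hearts this was 0.0677 CPM, with an exact Poisson 95% interval of 0.00820 to 0.245 CPM that covers counting error only. All 6 arms together held 0.256% ± 0.0343 of the counts, between 0.214% in heart 5 and 0.297% in heart 2.

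**Figure D1:**
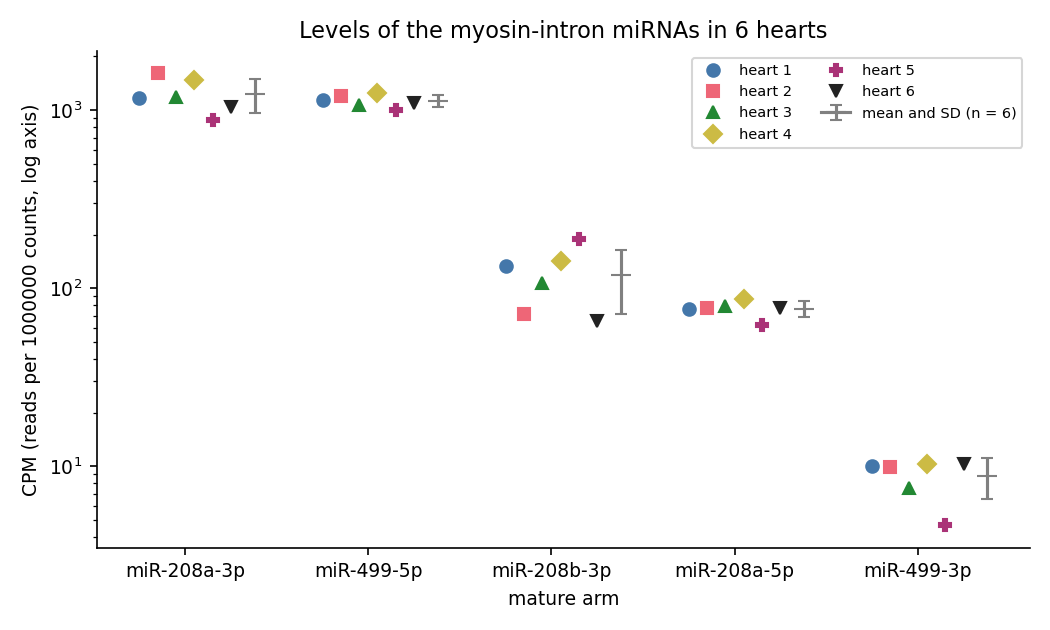
The vertical log axis gives CPM, reads per 1000000 counts of the library, for the 5 arms with more than 2 reads, with 1 marker per heart and the mean and SD of 6 hearts beside them. miR-208a-3p and miR-499-5p overlap near the top, miR-208b-3p and miR-208a-5p overlap lower down, and miR-499-3p is lowest.

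The miRNA nearest above or below each leading arm in the order of means showed how far that order could be resolved. Over all 59685 pairs of miRNAs that averaged 10 or more reads, 92.7% differed at an adjusted p under 0.05 in edgeR's quasi-likelihood test with the heart as a block and Benjamini-Hochberg adjustment, and 89.5% in an exact sign-flip test over the hearts, two-sided. miR-208a-3p did not pass that test against either neighbour, miR-142-5p above it at 1251 CPM (adjusted p = 0.834) and miR-25-3p below it at 1223 CPM (adjusted p = 0.874). miR-499-5p did not pass against miR-322-5p above it at 1192 CPM, with a log2 ratio of -0.08 and an adjusted p of 0.375. It was nevertheless below miR-322-5p in 6 of 6 hearts, and the exact sign-flip test gave p = 0.0312, the smallest that 6 hearts allow (adjusted p = 0.0349). Against miR-99a-5p below it, at 1102 CPM, the edgeR adjusted p was 0.761. miR-208b-3p did not pass against miR-361-5p at 121 CPM (adjusted p = 0.485) or miR-335-5p at 117 CPM (adjusted p = 0.728).

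Each of the 3 hairpins kept nearly all its reads in 1 arm, and the kept arm was the one with the UAAGAC seed in all 3. Over the 213 hairpins with 2 arms and enough reads, 89.2% had arms that differed at least 2-fold at an adjusted p under 0.05 in edgeR's quasi-likelihood test, 40.8% with more 3p and 48.4% with more 5p, so a call alone does not set these hairpins apart. Mir208a had 15.8 times as many 3p as 5p reads, a log2 ratio of 5p over 3p of -3.98 (SE 0.11), and ranked 127 of 213 by the size of the ratio. The median absolute log2 ratio of the 213 hairpins was 4.99, so the arms of Mir208a were less unequal than the median. Mir499 had 129 times as many 5p as 3p reads, a log2 ratio of 7.02 (SE 0.14), rank 61. Mir208b had the steepest ratio of the 3, a log2 ratio of -10.31 (SE 0.28) and rank 23, but it rests on 2 reads of the 5p arm. That SE is derived from the edgeR test and is too narrow for so few reads. With 0.5 added to each count, the log2 ratios of Mir208b in single hearts averaged -9.54 with an SD of 1.17. The edgeR adjusted p-values were 3.69e-187 for Mir208a, 3.71e-192 for Mir208b and 1.31e-289 for Mir499, and they use a spread pooled over hairpins. An exact sign-flip test, two-sided, gave p = 0.0312 for each hairpin (adjusted p = 0.0334), with the same arm ahead in 6 of 6 hearts.

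The share of the rarer arm can be read heart by heart. miR-208a-5p made up 6.13%, 4.56%, 6.27%, 5.57%, 6.63% and 6.88% of the Mir208a reads in hearts 1 to 6, with a mean of 6.01% ± 0.838 (SD, n = 6). The Wilson 95% interval was 4.14% to 5.03% in heart 2 and 6.28% to 7.54% in heart 6, so these 2 hearts did not overlap. miR-499-3p made up 0.874%, 0.815%, 0.707%, 0.820%, 0.461% and 0.937% of the Mir499 reads, with a mean of 0.769% ± 0.169. Heart 5 was lowest, at 28 reads of 6079, with a Wilson 95% interval of 0.319% to 0.665%. For Mir208b the 5p arm held 2 of 3507 reads pooled over hearts, 0.0570%, with a Wilson 95% interval of 0.0156% to 0.208%. In heart 5, the deepest for this hairpin, 0 of 1136 reads allow a share of up to 0.264%. That limit is under the observed share of either other passenger strand in any heart. Shallower hearts set a looser limit, up to 0.847% in heart 2, with 0 of 354 reads.

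**Figure D2:**
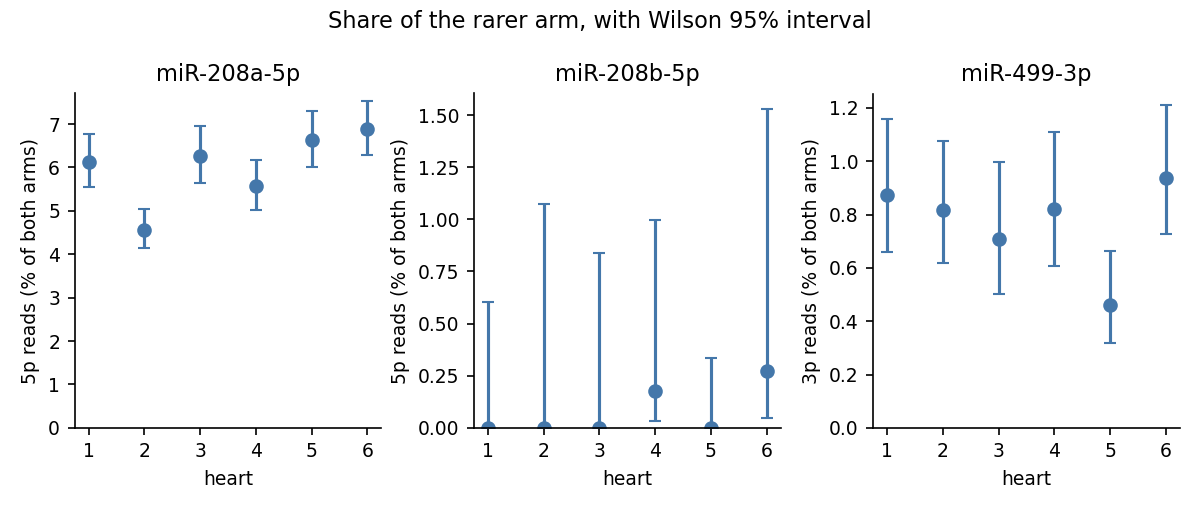
Each panel gives the share of the rarer arm in percent of both arms' reads, with a Wilson 95% interval, for hearts 1 to 6; the vertical scales differ between panels. The share of miR-208a-5p is lowest in heart 2, at 4.56%, and that of miR-499-3p is lowest in heart 5, at 0.461%.

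Whether the arm shares moved between the 6 libraries beyond counting noise was tested with a chi-square test on the reads of both arms, which called 50.4% of 119 testable hairpins at an adjusted p under 0.05. Mir208a was called (chi-square = 46.2, adjusted p = 4.40e-08). Mir499 was not (chi-square = 11.2, adjusted p = 0.0838). Mir208b could not be tested, since fewer than 5 reads of its 5p arm were expected per heart.

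The ratios between hairpins within a heart do not depend on the library total. miR-208a-3p over miR-208b-3p, the leading arms of the Myh6 and Myh7 hairpins, was 8.81, 22.6, 11.1, 10.4, 4.65 and 16.0 in hearts 1 to 6. All hearts were above 1, and heart 2 was 4.86 times heart 5. The fitted ratio was 10.9-fold (log2 3.45, SE 0.25, edgeR quasi-likelihood adjusted p = 4.94e-08, exact sign-flip adjusted p = 0.0349). miR-499-5p over miR-208b-3p was 8.60, 16.8, 9.91, 8.80, 5.33 and 16.8, with a fitted ratio of 10.2-fold (log2 3.35, SE 0.21, edgeR adjusted p = 1.19e-08). Heart 5 was again lowest and hearts 2 and 6 highest. Without hearts 4 and 5 the fitted log2 ratios were 3.77 for miR-208a-3p over miR-208b-3p and 3.63 for miR-499-5p over miR-208b-3p, both still past the test in edgeR, and miR-208b-3p averaged 94.2 CPM.

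The third ratio, between the 2 abundant miRNAs, stayed close to 1. miR-499-5p over miR-208a-3p was 0.977, 0.746, 0.894, 0.848, 1.15 and 1.05 in hearts 1 to 6, so miR-499-5p was ahead in 2 of 6 hearts. The fitted log2 ratio was -0.10 (SE 0.11, edgeR adjusted p = 0.391) and did not pass the test, nor did it in the exact sign-flip test (p = 0.375). Of the passenger strands, miR-208a-5p was 8.86-fold above miR-499-3p (log2 3.15, higher in 6 of 6 hearts). miR-208a-5p against miR-208b-3p depended on the test, with a log2 ratio of -0.53 (SE 0.21), an adjusted p of 0.0325 in edgeR's quasi-likelihood test and p = 0.125 in the exact sign-flip test, and with miR-208a-5p ahead in 2 of 6 hearts.

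**Figure D3:**
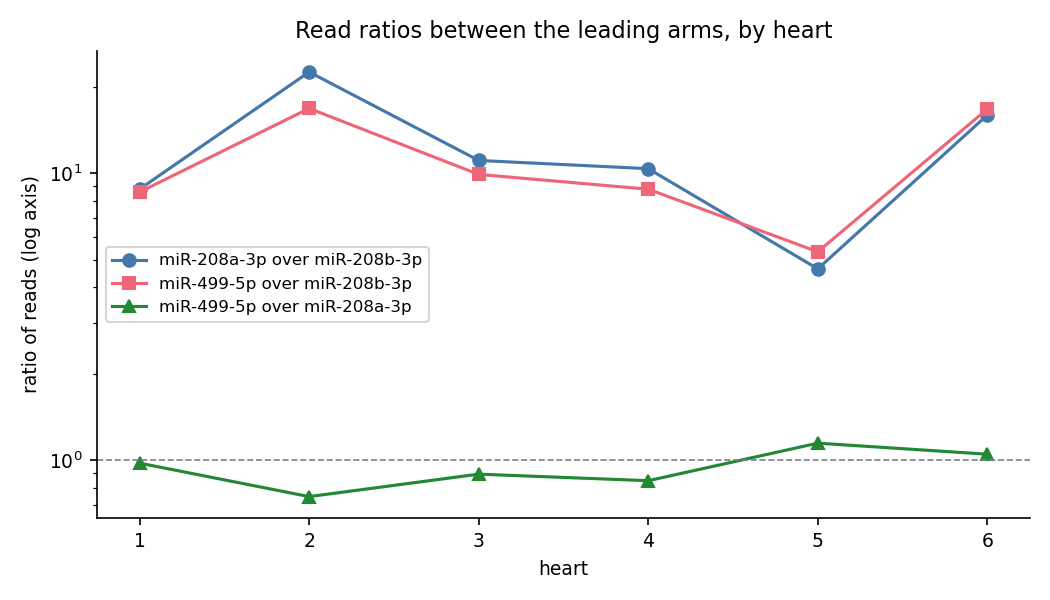
The vertical log axis gives ratios of reads within each heart, on the horizontal axis; lines only join the values of 1 ratio, since hearts have no order. Both ratios over miR-208b-3p are lowest in heart 5, at 4.65 and 5.33, while miR-499-5p over miR-208a-3p stays between 0.746 and 1.15.

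As shares of the 3 leading arms together, miR-208a-3p held 49.2% ± 4.53, miR-499-5p 45.9% ± 3.02 and miR-208b-3p 4.91% ± 2.36 (SD, n = 6). The 3 arms share bases 2 to 7, and their sum was 2472 ± 336 CPM, between 2075 CPM in heart 5 and 2880 CPM in heart 2. miR-208b-3p held 9.11% of the sum in heart 5 and 2.48% in heart 2. Reads of different miRNAs can be favoured unequally by adapter ligation, so these are shares of reads, not of molecules.

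Set against the muscle miRNA miR-133a-3p, miR-499-5p had the lowest spread of the 3, as it also had against miR-1a-3p and miR-133b-3p. Of these muscle miRNAs, only miR-133a-3p gave miR-499-5p a spread below the median of its partners. miR-499-5p had 12.1 to 13.2 reads per 1000 reads of miR-133a-3p, a fitted difference of 79.1-fold (log2 -6.31, edgeR adjusted p = 3.95e-14). The SD of the log2 ratio over hearts was 0.06, the third lowest among 206 partners averaging 100 or more reads, for which the median was 0.21. Its SD was above that median against miR-1a-3p (0.24, rank 131) and miR-133b-3p (0.23, rank 121). miR-208a-3p had 10.5 to 17.7 reads per 1000 of miR-133a-3p, with an SD of 0.27 against a median of 0.37, while its SD was 0.42 against miR-1a-3p and 0.31 against miR-133b-3p. miR-208b-3p had 0.734 to 2.26, with an SD of 0.62 against a median of 0.58, and its SD was 0.65 against miR-1a-3p and 0.62 against miR-133b-3p. Against miR-1a-3p, the muscle miRNA made with miR-133a, the fitted differences were 6.25-fold for miR-208a-3p, 6.70-fold for miR-499-5p and 67.9-fold for miR-208b-3p, all below miR-1a-3p.

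The levels of these miRNAs spread between the 6 libraries to unequal degrees, most for miR-208b-3p among the leading arms. Whether the 6 counts of a miRNA spread more than counting alone gives was tested by chi-square on TMM-scaled totals, which called 69.9% of 346 miRNAs averaging 10 or more reads and 88.9% of 207 averaging 100 or more. All 5 testable arms were called, so the call alone does not set them apart. With 1 library per heart, this spread holds both differences between hearts and the noise of library preparation, which cannot be told apart. The coefficient of variation (CV) after TMM scaling was 36.3% for miR-208b-3p, rank 10 of 207 from the most variable, 22.5% for miR-208a-3p, rank 31, and 8.75% for miR-499-5p, rank 158, where the median was 12.3%. Counting noise alone would give 4.14%, 1.30% and 1.35% for these 3 arms. The chi-square was 419 for miR-208b-3p, 1688 for miR-208a-3p and 238 for miR-499-5p, and the largest adjusted p of the 3 was 9.12e-49.

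The passenger strands were less firmly separated from counting noise. miR-208a-5p had a CV of 10.7% (adjusted p = 0.000143) and miR-499-3p one of 27.5% (adjusted p = 0.00259), where counting alone would give 5.18% and 15.3%. Both calls rest on heart 5. Without it the CV of miR-208a-5p was 1.90% (adjusted p = 0.983) and that of miR-499-3p was 13.2% (adjusted p = 0.602). The leading arms kept their calls without heart 5, with CVs of 30.5% for miR-208b-3p, 17.9% for miR-208a-3p and 5.99% for miR-499-5p.

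Heart 5 was lowest for miR-208a-3p, miR-208a-5p, miR-499-5p and miR-499-3p and highest for miR-208b-3p, whether the counts were scaled to library totals, by TMM, by DESeq2 size factors or to miR-133a-3p. On the log2 scale after TMM scaling it deviated from the mean of the 6 hearts by -0.51 for miR-208a-3p, -0.35 for miR-208a-5p, -0.22 for miR-499-5p and -0.93 for miR-499-3p, and by 0.72 for miR-208b-3p. The arms of Mir208a did not move alike in heart 2, where miR-208a-3p deviated by 0.48 while miR-208a-5p had 80.3 CPM after TMM scaling, within the 78.8 to 81.2 CPM of hearts 1, 3, 4 and 6. In bulk tissue, fewer cells of a type and less RNA per cell cannot be told apart. Marker lists also moved in heart 5: the 2 cartilage markers were at 1999 CPM as given above, and the 4 muscle markers, 3 of them with a mean of at least 10 reads, summed to 88804 CPM, against 93711 to 103685 CPM in the other hearts. Most of that muscle sum is miR-133a-3p, and its members did not move alike. On library totals heart 5 was lowest for miR-133a-3p, at 83533 CPM, but highest for miR-1a-3p, at 8709 CPM. For miR-133b-3p it was at neither end. The 5 leukocyte markers summed to 2054 CPM in heart 5, against 2304 to 3041 CPM in the other hearts. Their part in the levels was not tested.

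**Figure D4:**
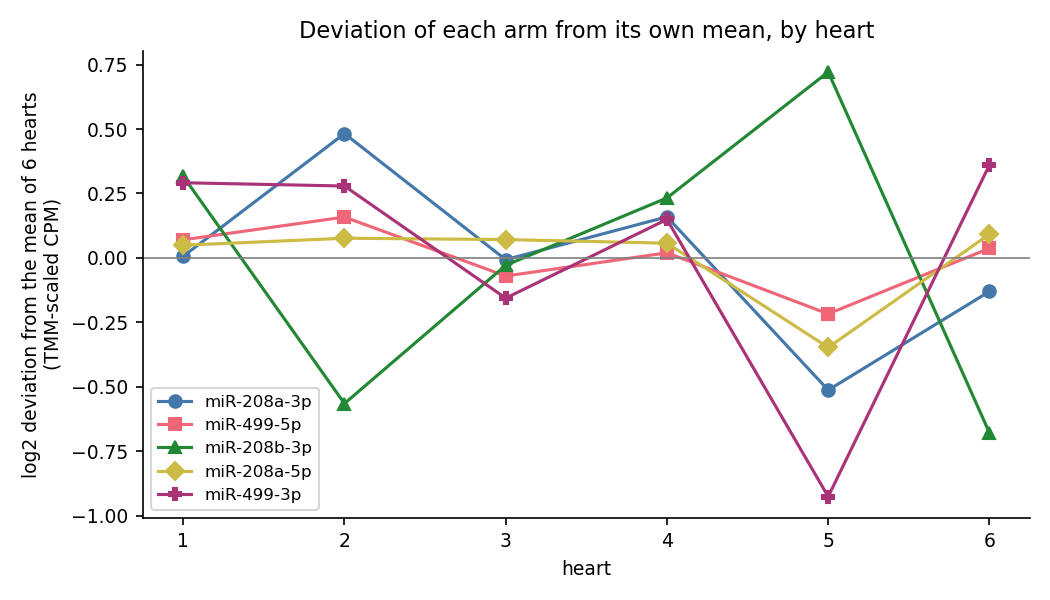
The vertical axis gives the log2 deviation of an arm's TMM-scaled CPM from its mean over 6 hearts, by heart; lines only join the values of 1 arm. In heart 5 miR-208b-3p lies at 0.72 and the other 4 arms lie between -0.93 and -0.22.

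No co-variation of the 3 miRNAs over hearts passed the test. Of the 21321 pairs among miRNAs averaging 100 or more reads, 0% were called at an adjusted p under 0.05 in an exact permutation test of Pearson's r or of Spearman's rho, and 7.4% had an unadjusted p under 0.05 for Pearson's r. With 6 hearts this permutation p cannot go below 0.00139, and the lowest adjusted p of any pair for Pearson's r was 0.592. A single pair could not pass after adjustment over so many pairs, so the lack of calls does not show that co-variation is absent. miR-499-5p and miR-208a-3p had r = 0.88 (exact permutation p = 0.0333, adjusted p = 0.637) and rho = 0.71 (p = 0.136, exact), and r was -0.06 once hearts 2 and 5, which lay farthest from the median, were left out. With 1 heart left out at a time, r lay between 0.69 without heart 5 and 0.93 without heart 6, so the relation rests on hearts 2 and 5 together. miR-208a-3p and miR-208b-3p, from neighbouring myosin genes, had r = -0.58 (exact permutation p = 0.232, adjusted p = 0.788) with a rho of -0.26 (exact p = 0.658), while r was 0.80 without hearts 2 and 5 and -0.38 when scaled to library totals without TMM. miR-499-5p and miR-208b-3p had r = -0.69 (exact permutation p = 0.121, adjusted p = 0.723) with a rho of -0.49 (exact p = 0.356), while r was 0.07 without the same hearts and -0.26 when scaled to library totals without TMM. The 2 arms of Mir208a had r = 0.76 (exact permutation p = 0.113, adjusted p = 0.714) with a rho of 0.26 (exact p = 0.658), while r was 0.59 without hearts 5 and 6 and -0.10 without heart 5 alone.

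The miRNAs whose levels ran most like each leading arm over the 6 hearts are given as a description, since none passed adjustment and all share libraries. For miR-208a-3p they were miR-320-3p (r = 0.97), miR-30e-5p (0.95), miR-378d-5p (0.91), miR-499-5p (0.88) and miR-486-3p (0.82). For miR-499-5p they were miR-322-5p (r = 0.96), miR-133a-3p (0.94), miR-30e-5p (0.93), miR-208a-3p (0.88) and miR-32-5p (0.88). For miR-208b-3p they were miR-146b-5p (r = 0.93), miR-145-5p (0.91), miR-31-5p (0.91), miR-300-3p (0.89) and miR-199a-5p (0.88).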

How the data were processed

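Whole-number read counts per mature arm were used as the authors deposited them, not normalized, with the 6 libraries as 1 group. Per the labels' protocols, adapters were ligated to total RNA with a TruSeq small RNA kit. Per the submitters' processing notes, GRCm38 was the genome build, and the tools listed are DESeq and edgeR, with no version. For the aligner and for reads that match several places, no details are given in the sources used. Entries of 1 mature name were summed; 38 antisense entries were assigned to the opposite-strand hairpin, and 38, at most 0.000706% of a library, were left out. CPM uses the library total. Arms and pairs were tested with edgeR 4.0.16 (R 4.3.3, heart as a block) and hearts by chi-square. Correlations were taken on log2 CPM with a prior count of 1 and tested by all 720 permutations. The procedures were also run on simulated data with a preset spread, and the outcome is not given here. The alternatives were DESeq2 1.42.0, other scalings and minimums, and hearts left out. The members, marker lists and the rule for named miRNAs (arms, 5 most alike, neighbours in level, muscle list, shared seed) were chosen with earlier results of these data known. Reads carry no molecular identifiers, so intervals cover counting error only.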

Additional observations from a re-analysis of the deposited data

Results flagged for a closer look

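The level of miR-208a-5p, the passenger strand of the Myh6 hairpin, lay apart in heart 5: it was 59.9 CPM after TMM scaling, where the other 5 hearts had 78.8 to 81.2 CPM. The gap to the nearest heart was 0.888 of the whole range, above the critical value of Dixon's test. On library totals, at 62.4 CPM in heart 5 against 76.4 to 87.0 CPM in the other hearts, the same arm was not flagged. Of 20 sets of 6 values checked, which held the levels of an arm under both scalings, 1 had such a value. Chance gives about 1 in 20.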

How the results depend on the processing

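Of 187 values recomputed under the alternatives, 180 kept their direction and side of the threshold, moved by less than the spread between hearts or, for percentages called, stayed within a set fold change. Correlations count among these because none was called under any setting, although r itself shifted. Without a minimum on reads, 25.9% of miRNAs (253 of 975) varied beyond counting noise, against 69.9% with a mean of at least 10 reads, since miRNAs with few reads then enter. With miR-486 left out of the library total, miR-208a-5p averaged 89.3 CPM and miR-499-5p 1314 CPM. Besides the calls lost without heart 5, leaving out hearts 4 and 5 gave CVs of 1.76% for miR-208a-5p (adjusted p = 0.966) and 14.8% for miR-499-3p (adjusted p = 0.497), while the leading arms kept theirs. The hearts form 1 group, so they could not be paired with hearts of another group. Arms and pairs of miRNAs were compared within hearts throughout. Depth limits miR-208b-5p, seen in 2 reads, and its arm ratio; with 6 hearts, no exact test by sign flips can go below p = 0.0312.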

Other observations

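Some ratios between these arms and miRNAs from other genes were steadier over hearts than the ratio between the arms of 1 hairpin. miR-208a-5p had an SD of 0.23 on the log2 scale against its own partner miR-208a-3p. From the steadiest, this ranked 94 among the 206 partners of miR-208a-5p, but 11 among the 206 partners of miR-208a-3p. The SD of miR-208a-5p was 0.10 against miR-499-5p (rank 4) and 0.11 against miR-133a-3p (rank 7). Against the other muscle miRNAs its SD was larger, 0.31 for miR-1a-3p (rank 154) and 0.24 for miR-133b-3p (rank 116). Its lowest SD was 0.05, against miR-155-5p, a leukocyte miRNA singled out after its values were seen. miR-499-5p had its lowest SD, 0.04, against miR-322-5p. Whether these SDs differ was not tested.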
